A study of Mus musculus with 96 samples.

Results

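Open primed enhancers were the GATA6 binding regions that the authors assigned to the histone state of primed enhancers in undifferentiated embryonic stem (ES) cells, and whose chromatin they classed as accessible or moderately accessible before induction. They numbered 3494 of the 42403 GATA6 regions in the table, or 8.24%, with 203 in the accessible class and 3291 in the moderate class. Apart from the GATA6 peak that puts a region in the table, neither label uses the binding of a transcription factor, so that the levels and courses of GATA6, SOX17, OCT4, SOX2 and ESRRB were not used to choose the regions. The histone and accessibility signals behind the labels were not analysed here. Binding was measured by chromatin immunoprecipitation and sequencing (ChIP-seq) in KH2 ES cells, a C57BL/6 x 129/Sv line, carrying an HA-tagged Gata6 transgene under control of doxycycline (Dox). Cells on feeder fibroblasts with LIF were collected before Dox (day 0) and at 5 times of Dox at 1 µg/mL, namely 8 h, 16 h and days 1, 2 and 4. A series of 6 values below follows this order. The clones used were G6.1 and G6.3. Extra-embryonic endoderm (XEN) cells, of the X10 line on a CD1 background, were grown on feeders without LIF and profiled for all factors but ESRRB. In cells of clone G6.3 transfected with control (siCTL) or Oct4 (siOct4) siRNA, GATA6 and SOX17 were profiled after 2 days of Dox. XEN cells differ from the induced cells in line, strain and medium, which cannot be told apart from the state of differentiation. Each condition had 2 libraries, except for GATA6 at day 0 and OCT4 in XEN cells with 1, and GATA6 at day 4, SOX2 at day 0 and day 4 and input in XEN cells with 3. The table holds 1 value for each condition, in reads scaled to library size (RPM) pooled over its libraries. No spread between replicates, test or p-value can be given for a difference between conditions, and every count below is a description. Fewer cells with a factor bound at a region, and less binding in each cell, cannot be told apart in these populations.

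Primed enhancers are commonly described as distal elements that carry H3K4me1 while lacking the acetylation of active enhancers and the Polycomb mark of poised ones. GATA6 is the zinc-finger factor that directs inner cell mass cells to the primitive endoderm (PrE), recognising the letters GATA. SOX17 is an HMG-box factor of the endoderm. OCT4, SOX2 and ESRRB are pluripotency transcription factors (PTFs), and OCT4 and SOX2 bind together at a composite motif.

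The sequence at GATA6 summits is shown for the regions with the highest GATA6 signal in each combination of GATA6 and SOX17 class, so that the sites behind the different courses can be compared. The authors' GATA6 classes are Early&Constant, for regions bound early and kept, Late, for regions gained later, and Transient, for regions bound early and lost. Each window holds 200 bases around the GATA6 summit on the plus strand of mm10, read from the matching RefSeq genome, and capitals mark the best GATA6 motif match that the authors deposited, where it lies in the window.
Vps8, Early&Constant with SOX17, chr16:21396427-21396626: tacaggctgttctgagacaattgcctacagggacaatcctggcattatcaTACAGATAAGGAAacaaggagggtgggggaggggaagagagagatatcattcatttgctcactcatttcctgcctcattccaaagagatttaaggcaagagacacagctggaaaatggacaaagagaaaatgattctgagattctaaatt
Fgfr2 intron, Early&Constant without SOX17, chr7:131697314-131697513: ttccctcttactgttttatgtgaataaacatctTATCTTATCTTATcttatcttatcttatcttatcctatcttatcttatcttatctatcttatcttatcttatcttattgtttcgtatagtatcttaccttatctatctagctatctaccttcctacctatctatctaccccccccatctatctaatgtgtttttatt
Cnot1, Late with SOX17, chr8:95811813-95812012: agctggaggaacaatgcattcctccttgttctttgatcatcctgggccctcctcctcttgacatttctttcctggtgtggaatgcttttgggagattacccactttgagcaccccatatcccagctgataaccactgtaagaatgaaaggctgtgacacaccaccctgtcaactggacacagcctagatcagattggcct
Wbp1l intron, Late without SOX17, chr19:46628613-46628812: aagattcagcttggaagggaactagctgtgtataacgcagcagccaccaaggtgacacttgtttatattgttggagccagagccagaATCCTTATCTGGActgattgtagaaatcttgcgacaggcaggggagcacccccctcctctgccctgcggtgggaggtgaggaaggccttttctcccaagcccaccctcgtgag
Dtnb intron near Dnmt3a, Transient with SOX17, chr12:3738915-3739114: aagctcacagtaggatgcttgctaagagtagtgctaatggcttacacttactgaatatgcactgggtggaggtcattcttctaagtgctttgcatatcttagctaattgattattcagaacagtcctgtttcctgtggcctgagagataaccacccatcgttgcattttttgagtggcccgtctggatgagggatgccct
Camta1 intron, Transient without SOX17, chr4:151849892-151850091: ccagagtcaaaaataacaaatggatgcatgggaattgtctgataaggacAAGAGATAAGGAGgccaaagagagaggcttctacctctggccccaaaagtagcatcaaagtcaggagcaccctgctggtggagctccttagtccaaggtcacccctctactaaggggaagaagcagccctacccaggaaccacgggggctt
The Fgfr2 window, whose nearest protein-coding start is that of Bub3, is a run of repeated TTATC letters. These are the reverse complement of GATAA, which the window holds 14 times on both strands together. The Vps8 and Camta1 windows hold GATAA 2 times each, and the other windows 1 time. The best GATA6 matches of the Cnot1 and Dtnb regions lie 340 and 756 bases from the summit, outside the windows, and the Cnot1 match has the lowest score of these regions, at 6.87 against 13.6 for Vps8.

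Beside them stand regions near genes named further on, whose best GATA6 match lies within the same window as the best OCT4:SOX2 match. Capitals mark both matches.
Sox7, chr14:63936559-63936758: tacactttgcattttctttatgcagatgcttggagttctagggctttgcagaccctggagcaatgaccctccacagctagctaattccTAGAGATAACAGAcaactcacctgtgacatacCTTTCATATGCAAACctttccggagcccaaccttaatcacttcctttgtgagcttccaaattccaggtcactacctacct
Klf5, chr14:99275339-99275538: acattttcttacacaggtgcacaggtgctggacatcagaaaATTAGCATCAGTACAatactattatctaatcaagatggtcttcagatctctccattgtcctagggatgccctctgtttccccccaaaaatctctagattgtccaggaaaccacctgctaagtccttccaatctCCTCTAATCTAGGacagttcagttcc
Jarid2 intron, chr13:44818387-44818586: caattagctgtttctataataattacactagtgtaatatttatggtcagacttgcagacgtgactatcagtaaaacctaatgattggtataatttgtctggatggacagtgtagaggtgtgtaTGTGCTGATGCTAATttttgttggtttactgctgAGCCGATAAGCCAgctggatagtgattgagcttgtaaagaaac
Dkk1, chr19:30505557-30505756: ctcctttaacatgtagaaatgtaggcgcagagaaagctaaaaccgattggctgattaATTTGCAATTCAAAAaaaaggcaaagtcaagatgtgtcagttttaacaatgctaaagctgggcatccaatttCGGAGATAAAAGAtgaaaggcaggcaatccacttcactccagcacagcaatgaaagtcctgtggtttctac
The matches are separated by 19 bases near Sox7, 118 bases near Klf5, 19 bases near Jarid2 and 57 bases near Dkk1. The Klf5 region is Early&Constant with SOX17 and the others are Transient, and all of them were bound by PTFs before induction.

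Open primed enhancers were distal. By their GATA6 summit, 61 of them (1.75%) lay within 1000 bases of the start of a protein-coding transcript in the GENCODE annotation, against 6.56% of all regions. A further 1706 were intronic, 1662 intergenic and 65 exonic. The median distance to the nearest start was 29.8 kb, compared with 25.7 kb for all regions, and 2681 members had 1 of 2194 genes within 100 kb. They were wider than GATA6 regions in general, with a median of 650.5 bases against 525, so that levels in RPM, which are not scaled to width, were compared per kb as well. Their base composition was close to that of all regions, with a median G+C content of 45% against 45.5%, but they held fewer CpGs, with a mean of 0.844 per 100 bases against 1.24.

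Compared with all regions, motifs for the PTFs were frequent and GATA letters less so. A match of high or mid score for the OCT4:SOX2 motif was present in 1223 members (35.0%) against 20.3% of all regions. The ESRRB motif was present in 30.1% against 22.5%, and the SOX17 motif in 48.4% against 42.6%. The GATA6 motif went the other way, at 52.8% against 59.8%. Per kb of width, which allows for their size, they held 3.3 OCT4:SOX2 matches against 2.64 over all regions, 0.899 ESRRB matches against 0.796, 2.35 SOX17 matches against 2.21, and 3.39 GATA6 matches against 4.04. Where a GATA6 match existed, its median distance to the summit was 78 bases, against 51 over all regions.

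Windows of equal length gave the same order. Searched on both strands of the 200 bases around the summit, GATAA was found in 64.6% of the members and 75.5% of all regions, and AGATAA, which contains GATAA, in 44.5% against 54.3%. The octamer ATGCAAAT was present in 4.12% against 2.99%, and AAGGTCA, the letters of the ESRRB site, in 10.8% against 7.03%. For SOX factors, ACAAAG was found in 33.8% against 28.9%, while CATTGT was equally frequent, in 23.4% against 22.9%. A match is a stretch of letters and not a measured site.

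GATA6 signal at open primed enhancers was highest at 8 h of Dox and declined from then on. The median over the members was 0.653, 3.05, 1.97, 1.53, 1.30 and 0.985 RPM over the 6 times, and 0.674 RPM in XEN cells. Over all regions the same series was 0.490, 1.49, 1.45, 1.29, 1.13 and 1.29 RPM, and 1.34 RPM in XEN cells. The members were thus 2.04 times the level of all regions at 8 h, but 0.761 times at day 4 and 0.501 times in XEN cells. Per kb of width the same ratios were 1.44, 0.568 and 0.387, and with input subtracted they were 2.27, 0.604 and 0.263. At day 0 the median of GATA6 over input was 1.03, so that the signal before Dox was at the level of input. Of the members, 2313 (66.2%) had the highest GATA6 value of the 6 times at 8 h, compared with 32.8% of all regions, and 576 (16.5%) had it at day 4, compared with 37.2%.

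**Figure D1:**
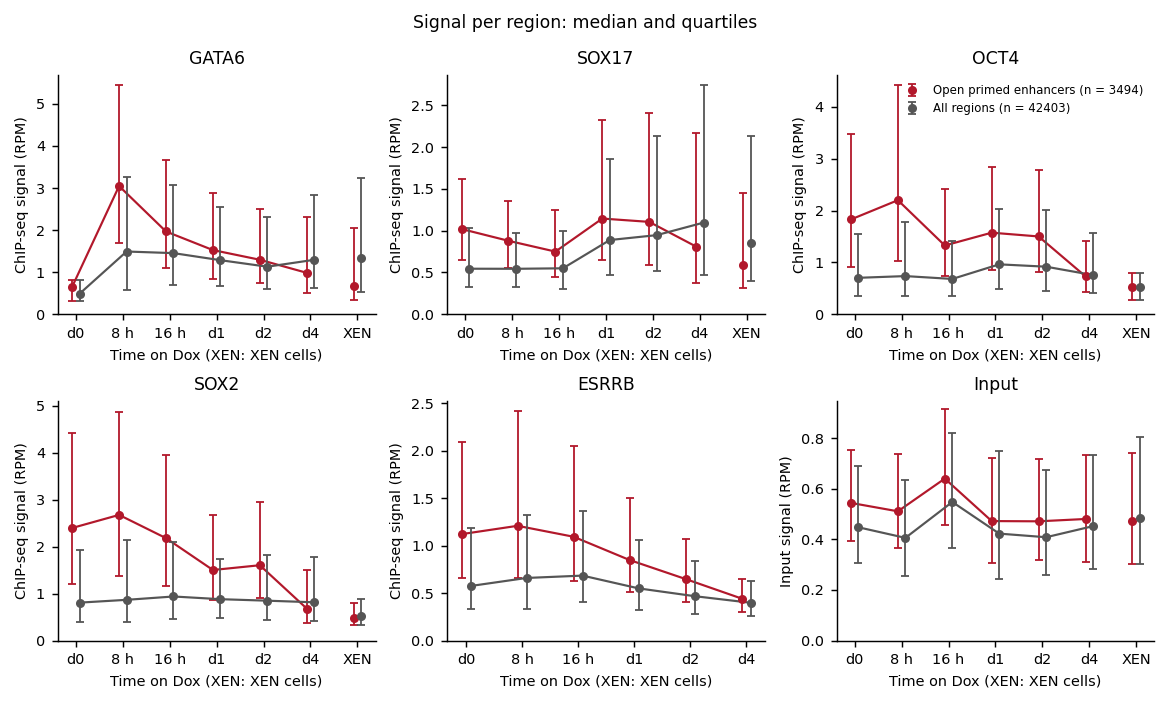
Signal of each factor and of input at open primed enhancers (red) and at all GATA6 regions (grey), in RPM on the y axes, by time on Dox and in XEN cells on the x axes. Points are medians over regions and bars span the quartiles of regions, not of replicates. GATA6 peaks at 8 h with a median of 3.05 RPM, and OCT4, SOX2 and ESRRB start above all regions and come down to their level by day 4.

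Changes were computed per region as differences of log2(RPM + pseudocount), with the pseudocount at percentile 5 of each factor's values, 0.193 RPM for GATA6, and a region was counted when it differed at least 2-fold. At 8 h against day 0, 2990 members (85.6%) were at least 2-fold higher, where the share over all regions was 60.4%, and 7 were lower, where it was 1.80%. From 8 h to day 1, 1617 members (46.3%) were lower, against 20.4% of all regions, and 117 (3.35%) higher, against 12.2%. By day 4, 2248 (64.3%) were lower than at 8 h, against 34.8%, and 398 (11.4%) higher, against 30.9%. The remaining 848 members differed by less than 2-fold between 8 h and day 4. In XEN cells compared with day 4, 522 members (14.9%) were lower, against 11.7% of all regions, and 170 (4.87%) higher, against 14.4%. In size, the median change of the members was 2.09 on the log2 scale from day 0 to 8 h and -1.58 from 8 h to day 4.

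These counts depend on the scaling where the median of all regions itself moved. That median, on the log2 scale, was 1.38 for GATA6 at 8 h against day 0. For SOX17 against day 0 it was 0.49 at day 1, 0.60 at day 2 and 0.79 at day 4, and -0.20 in XEN cells against day 4. It was 0.23 and 0.16 for OCT4 at days 2 and 4 against day 0, 0.10 for SOX2 at day 4, -0.40 for ESRRB at day 4 and 0.52 for SOX17 between siRNAs. Relative to it, the GATA6 change at 8 h was at least 2-fold upwards in 1384 members and downwards in 200, or 87.4% upwards of those counted in place of 99.8%. Whether such shifts reflect scaling to library size or binding itself was not tested.

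**Figure D2:**
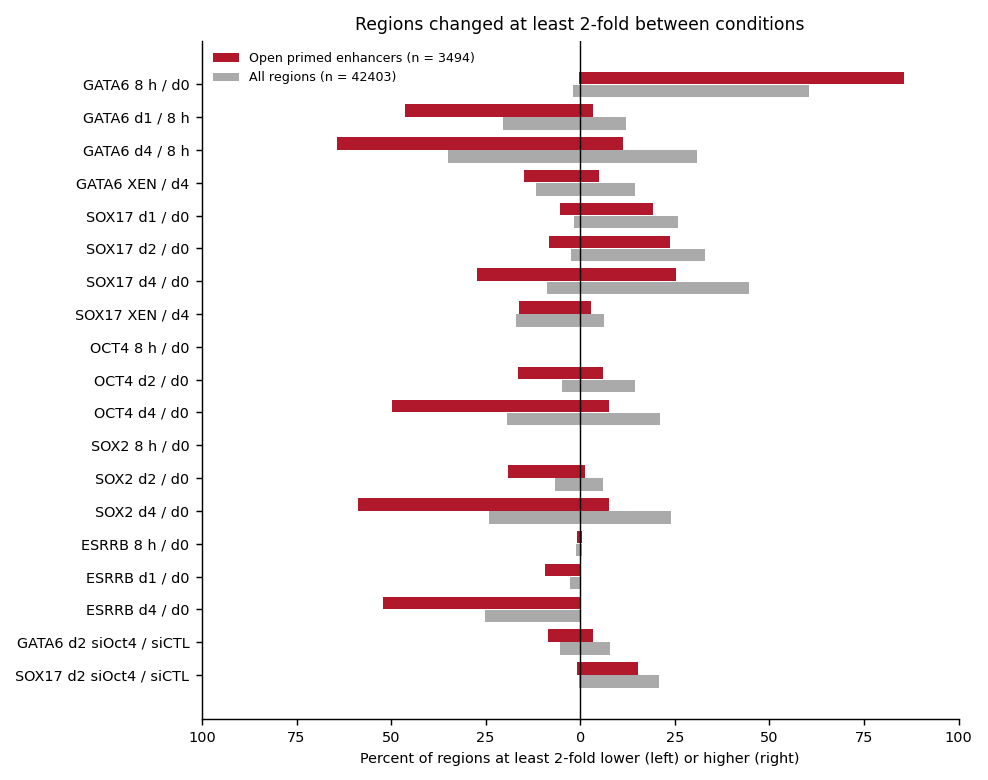
Percent of open primed enhancers (red) and of all regions (grey) whose signal differed at least 2-fold in each comparison, lower to the left and higher to the right of 0 on the x axis, with comparisons on the y axis. Open primed enhancers exceed all regions in GATA6 gains at 8 h, 85.6% against 60.4%, and in later losses of GATA6, OCT4, SOX2 and ESRRB.

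The authors' GATA6 classes divided the members unevenly. Transient regions numbered 2075 (59.4%, against 38.4% of all regions), Early&Constant regions 1006 (28.8%, against 28.0%) and Late regions 413 (11.8%, against 33.6%). The Transient share was not particular to the members. It was 59.3% in open poised enhancers, 73.5% in accessible active ones and 33.8% in closed primed ones, and 57.0% of all moderately accessible regions. The classes were made from GATA6 signal, so that the GATA6 course within them is only a description. In Transient members the median GATA6 series was 0.490, 2.98, 1.67, 1.15, 0.924 and 0.589 RPM, with 0.398 RPM for XEN cells. In Early&Constant members it was 0.653, 4.91, 4.46, 3.77, 3.46 and 3.14 RPM, with 2.67 RPM for XEN cells. Even within this class, 392 of 1006 members (39.0%) were at least 2-fold lower at day 4 than at 8 h, compared with 22.1% of all Early&Constant regions. Late members had 0.490, 0.817, 0.928, 1.07, 1.22 and 2.16 RPM, and 2.33 RPM in XEN cells.

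The other factors, which were not used to make the GATA6 classes, followed different courses in them. OCT4 started at about the same level in Early&Constant and Transient members, with medians of 2.15 and 2.07 RPM at day 0, and at 0.647 in Late members. By day 2 it was 2.79 RPM in Early&Constant and 1.24 in Transient members, and by day 4 it was 1.71 and 0.513. SOX17 had 1.43, 2.70 and 2.76 RPM in Early&Constant members on days 0, 1 and 4. On the same days it had 0.970, 0.840 and 0.440 RPM in Transient members and 0.557, 0.938 and 2.30 RPM in Late ones. SOX2 at day 4 was 1.83 RPM in Early&Constant, 1.5 in Late and 0.447 in Transient members. Its median change from day 0 to day 4 was -0.45, 0.68 and -2.09 on the log2 scale, in the same order. All regions of these classes had 0.29, 0.98 and -1.06.

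**Figure D3:**
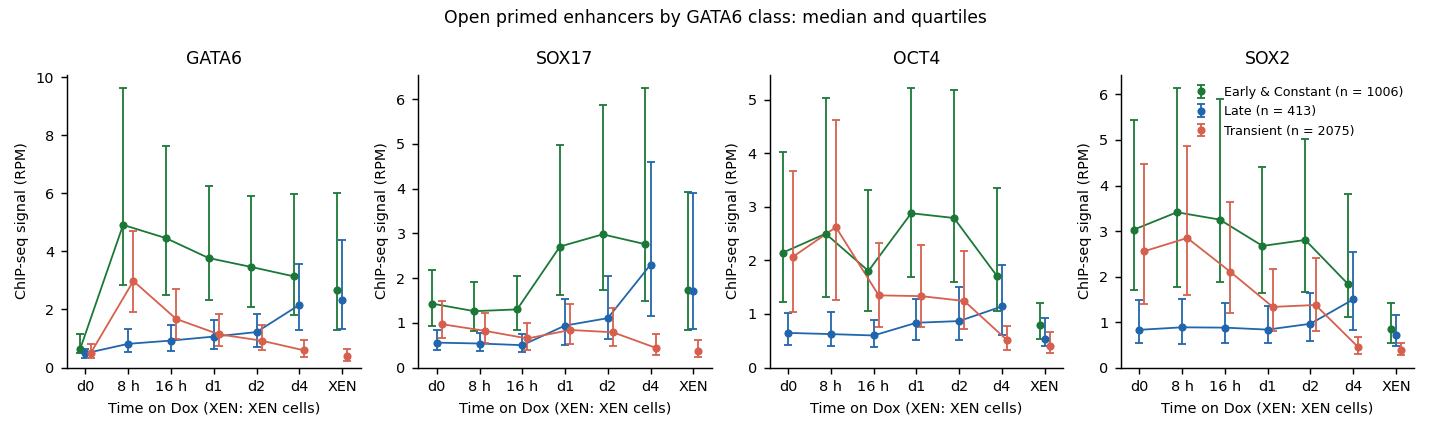
GATA6, SOX17, OCT4 and SOX2 signal in RPM (y axes) by time on Dox and in XEN cells (x axes) at open primed enhancers of the Early&Constant, Late and Transient GATA6 classes. Points are medians and bars quartiles over regions. OCT4 starts at 2.15 and 2.07 RPM in the Early&Constant and Transient classes and separates from day 1 on.

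Motifs differed between the same classes. A high or mid GATA6 match was least frequent in Late members, at 42.1%, with 65.8% in Early&Constant members and 48.6% in Transient ones. For OCT4:SOX2 the shares were 10.9%, 32.2% and 41.2%, and for SOX17 they were 47.9%, 57.0% and 44.3%, in the same order. Thus GATA6 and SOX17 matches were most frequent in Early&Constant members and OCT4:SOX2 matches in Transient ones. By score of the GATA6 match, the median GATA6 signal at 8 h was 1.73 RPM with no match, 2.57 with a low, 3.55 with a mid and 4.27 with a high score.

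OCT4, SOX2 and ESRRB occupied open primed enhancers before induction and were lower at the median member by day 4. Median OCT4 was 1.83, 2.20, 1.33, 1.57, 1.5 and 0.731 RPM over the 6 times, and 0.533 RPM in XEN cells, where all regions had 0.703 RPM before Dox. Median SOX2 was 2.40, 2.68, 2.18, 1.5, 1.60 and 0.682 RPM, and 0.488 RPM in XEN cells, where all regions had 0.808 RPM before Dox. ESRRB, an orphan nuclear receptor, had 1.12, 1.21, 1.09, 0.848, 0.648 and 0.442 RPM, where all regions had 0.574 RPM before Dox. At day 4 the median ratio to input was 1.61 for OCT4, 1.54 for SOX2 and 0.902 for ESRRB, so that OCT4 and SOX2 were still above input at the median member and ESRRB was not. In XEN cells the ratio of OCT4 was 1.01. Input itself stayed between 0.471 and 0.640 RPM at the median member.

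During the first 8 h, while GATA6 rose to its highest level, PTF levels changed little. No member reached a 2-fold change of OCT4 or SOX2 in either direction between day 0 and 8 h. Over all regions the shares were 0.0283% higher and 0.111% lower for OCT4, and 0.00236% higher and 0.0330% lower for SOX2. ESRRB was at least 2-fold higher at 12 members (0.343%, against 0.351%) and lower at 34 (0.973%, against 1.14%). The median OCT4 change over this interval was 0.23 on the log2 scale, and 80.0% of the members had a higher value at 8 h than at day 0.

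PTF losses were then more frequent at the members than over all regions. All regions started nearer to input, with a median OCT4 of 0.703 RPM and input of 0.448 at day 0. In the members these were 1.83 and 0.544 RPM, and the part of the starting level was not tested. At day 4, losses were more frequent still in accessible active enhancers, at 67.2% for OCT4, 80.5% for SOX2 and 82.3% for ESRRB. They were less frequent in closed primed and open poised enhancers. OCT4 was at least 2-fold lower than at day 0 in 577 members (16.5%, against 4.86% of all regions) at day 2 and in 1743 (49.9%, against 19.4%) at day 4. It was higher in 207 (5.92%, against 14.6%) and 270 (7.73%, against 21.0%). Relative to the median of all regions, the day 2 counts were 888 lower and 121 higher, so that 12% of those counted were higher in place of 26.4%. SOX2 was lower in 665 members (19.0%, against 6.70%) at day 2 and in 2056 (58.8%, against 24.1%) at day 4, and higher in 44 (1.26%, against 6.01%) and 270 (7.73%, against 24.0%). ESRRB was lower in 322 members (9.22%, against 2.71%) at day 1 and in 1823 (52.2%, against 25.2%) at day 4, and higher in 2 (against 0.271%) and 3 (against 0.248%). Losses of OCT4 and SOX2 from day 0 to day 4 ran in parallel, with a Spearman's rho of 0.94 across the members and 0.91 over all regions.

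By the authors' peak calls, 1905 members (54.5%) were bound by PTFs at day 0, against 20.8% of all regions. Another 339 (9.70%, against 16.6%) gained PTFs only after induction, called ectopic here as by the authors, and 1250 (35.8%, against 62.6%) had no PTF peak. Of the members bound by PTFs at day 0, 1278 (67.1%) were Transient and 575 (30.2%) Early&Constant for GATA6, while the ectopic members were Early&Constant in 63.4%. These shares were near those over all regions of the same PTF classes, at 60.0%, 37.1% and 61.3%. An OCT4:SOX2 match of high or mid score was present in 51.1% of the members bound at day 0, 20.9% of the ectopic and 14.3% of those without PTF. The largest combination of classes was Transient GATA6, PTFs at day 0 and no SOX17, with 1024 members (29.3%), a combination that held 9.34% of all regions. Its median GATA6 was 3.4 RPM at 8 h but 0.547 RPM by day 4 and 0.336 RPM in XEN cells. The next were Transient members with neither PTF nor SOX17, 659 in number (18.9%, against 21.1% of all regions), and Early&Constant members with PTFs at day 0 and SOX17, 498 in number (14.3%, against 6.84%). In the latter, GATA6 was 7.70 RPM at 8 h and 3.57 at day 4, SOX17 was 3.75 RPM at day 4, and OCT4 was 3.58 RPM at day 0 and 4.50 at day 2.

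Gains of SOX17 outnumbered losses at open primed enhancers on days 1 and 2 but not at day 4, and relative to the shift of all regions losses were the more frequent at each of these times. The reference was day 0, before the activation of Sox17 by GATA6 that the paper describes. A loss against day 0 is therefore a fall of antibody signal that was present before induction, and its origin was not tested. The median SOX17 series was 1.02, 0.879, 0.750, 1.15, 1.11 and 0.810 RPM, with 0.594 RPM in XEN cells. Over all regions it was 0.545 RPM at day 0 and 1.10 at day 4. At day 1 against day 0, 674 members (19.3%) were at least 2-fold higher, against 25.8% of all regions, and 188 (5.38%) lower, against 1.52%. At day 2, 830 (23.8%) were higher, against 33.1%, and 291 (8.33%) lower, against 2.42%. At day 4, 889 (25.4%) were higher, against 44.5%, and 958 (27.4%) lower, against 8.72%. In XEN cells compared with day 4, 96 (2.75%, against 6.25%) were higher and 562 (16.1%, against 16.9%) lower. Relative to the shift of all regions, the share of gains among the counted members went from 78.2% to 29.7% at day 1, from 74.0% to 29.4% at day 2, from 48.1% to 21.4% at day 4 and from 14.6% to 28.3% between day 4 and XEN cells.

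SOX17 signal was present at the members before induction. At day 0 they had 1.87 times the SOX17 signal of all regions, 1.45 times per kb and 4.93 times with input subtracted, and a median of 1.84 over input. Across members this signal followed that of SOX2 at day 0, with a rho of 0.88, and of 0.90 after subtracting input from both. Over all regions the same values were 0.93 and 0.85. In 856 members (24.5%, against 7.85% of all regions) SOX17 had its highest value of the 6 times at day 0. The authors called 1430 members (40.9%, against 44.5%) as SOX17 regions. Of the Early&Constant members, 79.5% were among these, of the Late members 66.6% and of the Transient members 17.1%. Over all regions of these classes the shares had the same order, at 72.6%, 53.4% and 16.2%.

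Across the members, GATA6 signal went with that of the other factors at 8 h and at day 4. GATA6 at 8 h and OCT4 at day 0 had a Spearman's rho of 0.73, which was 0.52 per kb and 0.67 with input subtracted. With SOX2 at day 0 the rho was 0.73 (0.51 per kb) and with ESRRB 0.65 (0.34 per kb). GATA6 and SOX17 at day 4 had a rho of 0.92, and 0.90 per kb. GATA6 and OCT4 at day 4 had one of 0.89, and 0.84 per kb, and GATA6 and input at day 4 one of 0.75. Regions share their libraries, width and input in these correlations over 3494 members: GATA6 at 8 h had a rho of 0.78 with width alone. Over all regions the rho of GATA6 at 8 h with OCT4 at day 0 was 0.88, higher than within the members, and at day 4 that of GATA6 with SOX17 was 0.93 and with OCT4 0.88.

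Ordered into quartiles by OCT4 per kb at day 0, the members showed opposite trends of early and late GATA6 per kb. The late trend depends on the scaling to width. Across the members, GATA6 at day 4 and OCT4 at day 0 had a rho of 0.09 in RPM, -0.38 per kb and -0.06 with input subtracted. Over all regions the same values were 0.24, -0.25 and -0.03. From the lowest to the highest quartile, of 873 or 874 members each, median GATA6 at 8 h was 2.95, 4.61, 5.53 and 5.94 RPM per kb. At day 4 it was 3.08, 1.82, 1.25 and 1.01 RPM per kb, and in XEN cells 2.97, 1.36, 0.870 and 0.566. The share of Transient members was 37.8%, 56.1%, 64.5% and 79.2%, and that of Late members 34.9%, 7.90%, 3.09% and 1.37%. SOX17 per kb at day 4 had the order of GATA6 at day 4, with 2.52, 1.45, 1.02 and 0.651.

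The few members of the accessible class stood apart from the moderate ones. Before induction the 203 accessible members had 3.53 RPM of OCT4 and 5.21 of SOX2 at the median, against 1.74 and 2.31 in the 3291 moderate members, although they were narrower, at 500 against 663 bases. GATA6 at 8 h was 2.45 RPM in accessible and 3.10 in moderate members, which does not allow for the difference in width. A high or mid GATA6 match was present in 19.2% of accessible and 54.9% of moderate members, and an OCT4:SOX2 match in 42.9% and 34.5%. Of the accessible members, 172 (84.7%) were Transient, against 64.5% of all accessible regions. SOX17 was at least 2-fold lower at day 4 than at day 0 in 63.5% of accessible and 25.2% of moderate members, where all regions of these classes had 30.01% and 16.7%. OCT4 was lower in 80.8% and 48.0%, where they had 44.6% and 32.9%.

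The members were set beside the most similar groups of regions. They lay between closed primed and accessible active enhancers in GATA6 at 8 h, OCT4 at day 0 and the shares of changes below. GATA6 at day 4 was instead lowest in the members in RPM, but not with input subtracted. At 8 h the median GATA6 signal was 1.72 RPM in 3652 closed primed enhancers, 1.92 in 4008 open poised enhancers and 3.59 in 1285 accessible active enhancers, with 3.05 in the members. At day 4 the order was different, with 1.57 RPM in closed primed, 1.03 in open poised, 1.14 in active and 0.985 in open primed enhancers. With input subtracted, the day 4 medians were 1.09, 0.499, 0.531 and 0.504 RPM in the same order. OCT4 at day 0 was 0.763, 0.925 and 3.69 RPM in the 3 groups, against 1.83 in the members. GATA6 at day 4 was at least 2-fold lower than at 8 h in 34.9% of closed primed, 48.5% of open poised and 70.1% of active enhancers, against 64.3% of the members. SOX17 at day 4 was at least 2-fold higher than at day 0 in 49.4%, 29.6% and 17.2%, against 25.4%. No test of these differences was made.

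Genes of 3 lists were used to look at single regions: 46 genes of pluripotency, 52 of the PrE and 18 of formative cells, which follow naive pluripotency in the epiblast. Members were assigned to the nearest protein-coding start within 100 kb, which does not show that they regulate it. Members lay near 20 pluripotency genes, with 29 regions, near 14 PrE genes, with 25 regions, and near 5 formative genes, with 5 regions. GATA6 at 8 h was at least 2-fold higher than at day 0 in 25 of 29, 21 of 25 and 5 of 5 of them. The share was 85.6% over the members and 60.4% over all regions. From 8 h to day 4 GATA6 was lower in 11 of 29, 10 of 25 and 4 of 5, and higher in 6, 2 and 0. These shares were 64.3% and 11.4% over the members, and 34.8% and 30.9% over all regions. ESRRB was lower at day 4 than at day 0 in 12, 12 and 3 of them, where the share was 52.2% over the members and 25.2% over all regions. The median change of GATA6 between 8 h and day 4 was -0.47 for pluripotency, -0.67 for PrE and -2.44 for formative regions, on the log2 scale. It was -1.58 over the members and -0.02 over all regions.

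Near pluripotency genes, regions with like GATA6 levels at 8 h had different courses. The region 4047 bases upstream of Sox2, chr3:34645871-34646868, had GATA6 at 1.14, 13.2, 8.51, 3.37, 2.15 and 0.785 RPM over the 6 times, and at 0.267 RPM in XEN cells. OCT4 there was 10.1, 13.4, 6.56, 7.39, 4.84 and 0.677 RPM. SOX17 at that region did not exceed its day 0 value of 1.94 RPM at any later time. This region was classed as Early&Constant, although its GATA6 came down after 8 h. Of the pluripotency regions of that class named here, it was the only one that the authors gave no SOX17 peak.

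The Klf5 region, 23252 bases upstream of the gene of this pluripotency Krüppel-like factor, kept its GATA6. It had 1.47, 16.8, 16.2, 15.6, 11.5 and 10.7 RPM, and 8.60 RPM in XEN cells. OCT4 there went from 4.99 RPM at day 0 to 10.2 at day 1 and 6.17 at day 4, and SOX17 from 3.35 at day 0 to 14.4 at day 2. Near Lifr, which encodes the LIF receptor, GATA6 was 2.45, 7.58, 6.67, 7.46, 8.09 and 19.4 RPM, and 28.7 RPM in XEN cells. SOX17 followed there with 3.49 RPM at day 0, 15.1 at day 2 and 34.5 at day 4. Input at that region also went up, from 2.0 RPM before Dox to 2.97 RPM by day 4 and 3.61 RPM in XEN cells, and its part in the GATA6 and SOX17 values was not tested.

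Near Nr0b1, which encodes the corepressor DAX1, GATA6 was 0.980, 13.6, 12.6, 9.45, 7.31 and 3.07 RPM. This region carried the highest ESRRB of the named pluripotency regions, with 11 RPM at day 0, 13.6 at 16 h and 0.587 at day 4, and the best ESRRB match there, shown because of that level, lies 27 bases from the summit at chrX:86187479-86187489 on the plus strand.
Nr0b1 ESRRB match: CCAAGGTCACC
Regions near Zfp42 (REX1, a marker of naive cells), Prdm14 (a PR-domain repressor) and Jarid2 (a subunit of PRC2) were Transient, with GATA6 at 4.46, 3.22 and 3.04 RPM at 8 h and 0.646, 1.16 and 1.07 at day 4. The region in an intron of Tet1, a 5-methylcytosine dioxygenase, had no PTF peak, and its GATA6 was 9.26 RPM at 8 h and 6.62 at day 4.

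Of the 25 regions near PrE genes, GATA6 was at least 2-fold lower at day 4 than at 8 h in 10 and higher in 2. The others differed by less than 2-fold. The shares lower and higher were 64.3% and 11.4% over the members, and 34.8% and 30.9% over all regions. Sox7, an HMG-box factor of the parietal endoderm, had a region 7014 bases upstream with GATA6 at 0.817, 13.9, 10.7, 3.10, 2.40 and 1.36 RPM, and at 0.868 RPM in XEN cells. OCT4 at the same region, whose sequence is given above, was 8.52 RPM at day 0, 12.6 at 8 h and 1.34 at day 4. Near Dkk1, a Wnt antagonist, GATA6 was 0.980, 11.4, 3.18, 1.72, 1.09 and 0.966 RPM, while OCT4 was 8.50 RPM at day 0 and 1.16 at day 4. Both regions were Transient and bound by PTFs at day 0.

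Regions near genes of the basement membrane, grouped here after their values were seen, had unlike courses. At the Lama1 region, 3185 bases upstream of this laminin gene, GATA6 was 1.63, 12.5, 10.2, 11.8, 13.9 and 18.9 RPM, and 22.1 RPM in XEN cells. SOX17 there was 5.0, 4.30, 5.4, 15.6, 21.5 and 31.7 RPM. Lamc1, another laminin gene, had the most members of any listed gene, with 7, and the strongest of them had GATA6 at 13.2 RPM after 8 h, 15.0 RPM by day 4 and 19.6 RPM in XEN cells. Near Nid2, which encodes a nidogen, GATA6 came down after 8 h, with 0.490, 5.60, 4.23, 2.73, 1.92 and 2.10 RPM, and 1.94 RPM in XEN cells. The Klf6 region had the highest SOX17 at day 0 of the named PrE regions, at 6.02 RPM, and its GATA6 was 33.4 RPM at 8 h and 21.0 at day 4.

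All 5 regions near formative genes were Transient, a class that held 59.4% of the members and 38.4% of all regions. Near Dnmt3a, a de novo DNA methyltransferase, a region in an intron of the neighbouring gene Dtnb had GATA6 at 0.490, 26.2, 16.4, 10.8, 5.43 and 1.60 RPM. OCT4 there was 15.2, 21.7, 14, 13.2, 8.70 and 1.69 RPM. Near Otx2, a homeobox gene of formative cells, GATA6 was 3.52 RPM at 8 h and 0.491 at day 4, and near Foxd3, a forkhead gene, 2.0 and 0.210. At the Fzd7 region, near a Wnt receptor gene, GATA6 stayed at 3.95 RPM at 8 h and 4.42 at day 4, although it was classed as Transient, and was 1.94 in XEN cells.

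**Figure D4:**
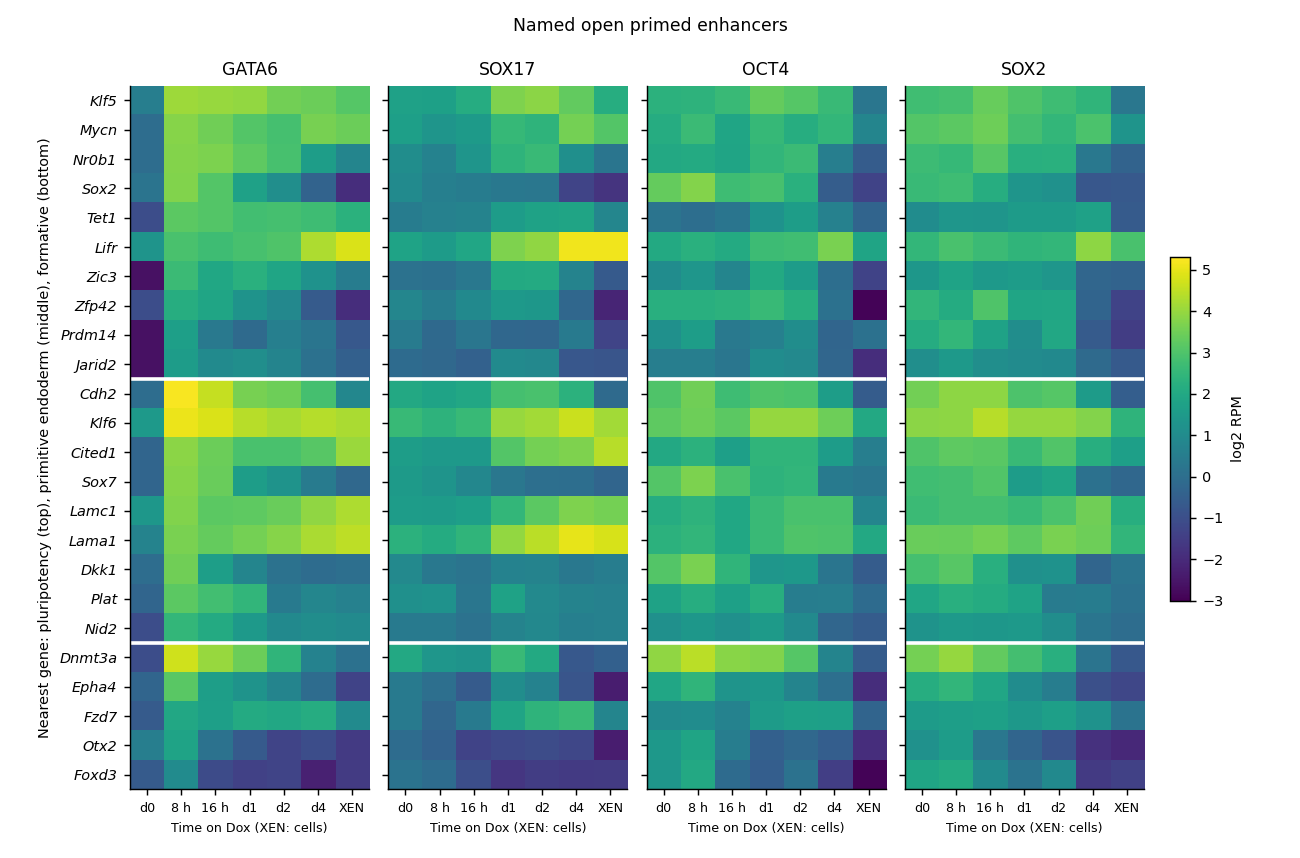
GATA6, SOX17, OCT4 and SOX2 signal as log2 RPM (colour) by time on Dox and in XEN cells (x axes) at open primed enhancers named after the nearest gene (y axis), with pluripotency genes on top, PrE genes in the middle and formative genes below. The Lifr and Lama1 rows brighten towards XEN cells, whereas the Sox2, Sox7, Dkk1 and Dnmt3a rows darken after 8 h.

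The highest values of single factors fell on regions of the Early&Constant class that were bound by PTFs at day 0 and by SOX17. GATA6 at 8 h was highest at 42.7 RPM near Cth, a gene of cysteine synthesis, where it came down to 13.7 at day 4. At day 4 it was highest in an intron of Tpm4, a tropomyosin gene, at 46.9 RPM, where it had been 18.5 at 8 h, and in XEN cells near Vps8, a gene of endosomal tethering, at 62.3 RPM. SOX17 was highest both at day 4 and in XEN cells in an intron of Txndc12, with 63.5 and 62.5 RPM. There input rose from 2.21 RPM at day 0 to 5.51 in XEN cells. OCT4 at day 0 was highest at 24.0 RPM in an intron of Ncam2, a cell adhesion gene, whose GATA6 was 25.6 RPM at 8 h and 1.69 at day 4. ESRRB at day 0 was highest near Rbmxl2, at 18.8 RPM, and SOX2 at 23.1 RPM at an accessible region with Gm28710 as the nearest gene.

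With Oct4 siRNA at day 2, GATA6 was slightly lower at the members and SOX17 higher, although SOX17 was lower when taken relative to the median of all regions. The median GATA6 signal was 1.46 RPM with control and 1.23 RPM with Oct4 siRNA, where over all regions it was 1.64 and 1.68. GATA6 was at least 2-fold lower at 295 members (8.44%, against 5.28% of all regions) and higher at 121 (3.46%, against 7.77%). SOX17 was 0.837 RPM with control and 1.16 with Oct4 siRNA, with 529 members (15.1%, against 20.8%) higher and 28 (0.801%, against 0.441%) lower. Relative to the shift of all regions, 116 members were higher and 216 lower for SOX17, or 34.9% higher of those counted in place of 95.0%, so that the direction of the SOX17 change depends on the scaling. For GATA6 the corresponding counts were 123 higher and 293 lower. The siRNA comparisons of GATA6 and of SOX17 come from separate libraries of the same 2 treatments.

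The GATA6 difference between siRNAs was lowest in the class with PTFs at day 0. At the 1905 members bound by PTFs at day 0 its median was -0.35 on the log2 scale, with quartiles of -0.74 and 0.05, and 249 of them (13.1%) were at least 2-fold lower. It was -0.03 at the 339 ectopic members and 0.00 at the 1250 without PTF, where 12 (3.54%) and 34 (2.72%) were lower. All regions of the same classes had medians of -0.29, -0.09 and 0.14, with 10.9%, 6.64% and 3.04% of them lower, so that the order of the classes is that of all regions. By GATA6 class, the median was -0.35 in Transient, -0.05 in Early&Constant and 0.45 in Late members. SOX17 was higher in each of the 3 PTF classes, with medians of 0.29, 0.51 and 0.55 in the same order, where the median of all regions was 0.52, so that relative to it the first is lower.

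**Figure D5:**
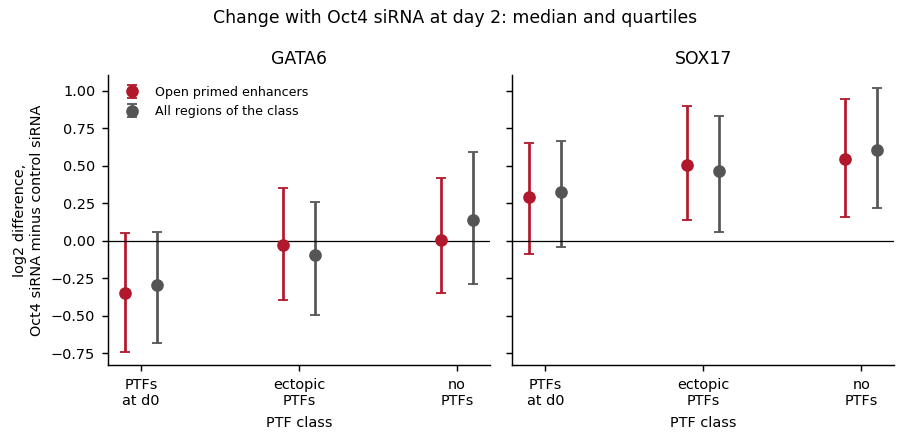
Difference of GATA6 (left) and SOX17 (right) between Oct4 and control siRNA at day 2, as log2 of RPM plus pseudocount on the y axis, by PTF class on the x axis, for open primed enhancers (red) and all regions of the class (grey). Points are medians and bars quartiles over regions. GATA6 is lowest at regions with PTFs at day 0, with a median of -0.35.

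The single regions with the lowest GATA6 relative to control were Transient and bound by PTFs at day 0. GATA6 was 2.65 RPM with control and 0.231 with Oct4 siRNA at an accessible region with Chordc1 as the nearest gene, 2.11 and 0.385 at a region with Hs3st4 as the nearest gene, and 1.34 and 0.213 in an intron of Aox2. The OCT4 signal at these regions at day 0 was 2.52, 2.86 and 3.16 RPM. The largest rises were in an intron of Robo1, a SLIT receptor gene, with 0.344 and 2.32 RPM, in an exon of Etv6, an ETS factor gene, with 1.17 and 5.56 RPM, and in an intron of Tada2a, with 4.42 and 18.8 RPM. All of these gained GATA6 during the time course as well, from 0.454, 1.30 and 4.29 RPM at day 2 to 1.85, 6.51 and 17.3 at day 4. At the region upstream of Sox2, GATA6 was 3.09 RPM with control and 0.982 with Oct4 siRNA, and at Lama1 it was 15.1 and 18.4.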

How the data were processed

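ChIP-seq of GATA6, SOX17, OCT4, SOX2, ESRRB and input was analysed from 1 table of 42403 GATA6 regions, in which 45 of the 47 conditions of 96 libraries have a column. The authors trimmed reads with cutadapt, aligned them to mm10 with bowtie2 and kept those of high mapping quality. They annotated reads with molecular identifiers by fgbio and removed duplicates marked by SAMtools. Peaks were called with MACS2 on merged replicates and kept where each replicate had them too, and reads were counted with bamsignals. The deposited values are RPM, scaled to library size and pooled over replicates. The authors also deposited classes (k-means on log2 input-normalized GATA6 signal, peak calls of SOX17 and PTFs, ATAC-seq accessibility, histone state) and the score of the best FIMO motif match, with its class. A column with the outcome of the authors' DESeq2 comparison of siRNAs was not used, and neither were 14 columns of accessibility and histone signal.

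Here, changes were differences of log2(RPM + pseudocount), with pseudocounts of 0.193 RPM for GATA6, 0.192 for SOX17, 0.167 for OCT4, 0.195 for SOX2 and 0.164 for ESRRB. The counting was tested on simulated data. In 4 columns (GATA6 at day 0, OCT4 in XEN cells, ESRRB at 8 h, SOX17 at 16 h) 100% of the values were whole multiples of the lowest value, within 0.01. No count test was run on them, since each condition has 1 pooled value. If these columns hold 1 library each, their depths are 6.12, 7.50, 9.10 and 20.0 M reads. SOX17 at 16 h and ESRRB at 8 h have 2 labelled libraries. No region is listed at 0. Genes came from GENCODE vM21 on GRCm38, which is mm10, and a gene list entry was matched by symbol.

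The regions and gene lists were chosen with earlier results of these data known. Regions named are, for each listed gene, the member with the highest GATA6 at 8 h, up to 10 a list, the highest member of each of 9 columns, the 3 largest rises and falls of GATA6 between siRNAs among members of at least 1 RPM in either, and the highest GATA6 member of each class combination. The region of 1 listed gene is not reported here. The alternatives were other pseudocounts, folds, scalings, filters and memberships. Calculations used Python 3.11.15, numpy 2.4.6, pandas 2.3.3 and scipy 1.17.1.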

Additional observations from a re-analysis of the deposited data

How the results depend on the processing

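Each condition has 1 pooled value, so that no replicate could be left out, and depth limits regions near the value of 1 read most. No paired analysis was possible because the replicates of a condition share 1 column and no result comes from a test. Of 22 shares of members that describe a comparison, a minimum of 0.5 RPM in either condition moved none by over 1.5 times. Values below are percent of members, as higher or lower against the reference condition of the report, and causes were not tested. At 1.5-fold, XEN cells against day 4 gave 33.6 lower for GATA6 and 30.4 lower for SOX17, SOX17 was higher in 33.7 at day 1 and 36.6 at day 2, and OCT4 and SOX2 at 8 h were higher in 7.47 and 3.32 and lower in 0.687 and 0.572. OCT4 and SOX2 at day 2 were lower in 33.3 and 42.0, ESRRB at 8 h and day 1 in 5.67 and 29.1, and with Oct4 siRNA GATA6 was lower in 24.8 and SOX17 higher in 37.6. At 4-fold, GATA6 was higher in 53.4 at 8 h and lower in 9.73 after 1 day, 35.9 after 4 days and 0.716 in XEN cells. SOX17 was higher in 2.72 at day 1, 6.10 at day 2 and 11.5 at day 4, and lower in 3.86 at day 4 and 3.03 in XEN cells. At days 2 and 4 OCT4 was lower in 0.544 and 25.7 and SOX2 in 0.487 and 36.1, ESRRB in 0 at 8 h, 0.0859 at day 1 and 18.4 at day 4, and with Oct4 siRNA GATA6 was lower in 0.0286 and SOX17 higher in 0.716.

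With a pseudocount 10 times larger, GATA6 was higher in 47.7 at 8 h and lower in 16.2 after 1 day, 34.5 after 4 days and 1.46 in XEN cells. SOX17 was higher in 5.67, 9.36 and 13.2 at days 1, 2 and 4, and lower in 1.26 at day 4 and 4.61 in XEN cells. OCT4 was lower in 3.38 and 25.4 and SOX2 in 2.83 and 31.7 at days 2 and 4, ESRRB in 0, 0.458 and 15.4 at 8 h, day 1 and day 4, and with Oct4 siRNA GATA6 was lower in 0.315 and SOX17 higher in 2.72. With it 10 times smaller, GATA6 was lower in 24.0 in XEN cells and 14 with Oct4 siRNA, OCT4 at 8 h was higher and lower in 0.172 each, SOX2 at 8 h lower in 0.114 and ESRRB lower in 2.52 at 8 h and 14.7 at day 1. Relative to the median of all regions, GATA6 at 8 h was higher in 39.6, SOX17 higher in 8.16, 11 and 13.7 at days 1, 2 and 4 and lower in 50.4 at day 4, OCT4 lower in 0.0286 at 8 h and 25.4 at day 2, SOX2 lower in 0.0572 at 8 h and SOX17 with Oct4 siRNA higher in 3.32. With input subtracted, in XEN cells GATA6 was lower in 27.2 and SOX17 in 26.4, SOX17 was higher in 35.1 and 38.6 at days 1 and 2, OCT4 and SOX2 at 8 h higher in 3.95 and 2.29 and lower in 0.916 and 0.487, and ESRRB lower in 4.44 at 8 h and 23.0 at day 1. In accessible members, GATA6 was lower in 25.1 in XEN cells, SOX17 higher in 9.85, 12.3 and 9.36 at days 1, 2 and 4 and lower in 63.5 at day 4, and OCT4 and SOX2 lower in 34.5 and 33.5 at day 2 and 80.8 and 89.2 at day 4. There ESRRB was lower in 0.493 at 8 h and 24.1 at day 1, and SOX17 with Oct4 siRNA higher in 6.90. In members narrower than the median of all regions, GATA6 was lower in 9.34 in XEN cells and 5.57 with Oct4 siRNA.

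The ratio of the members' median to that of all regions turned below 1 per kb of width for GATA6 at day 1 (0.947) and day 2 (0.912), SOX17 at day 2 (0.953) and with control siRNA (0.842) and ESRRB at day 4 (0.887), and above 1 with input subtracted for SOX2 in XEN cells (1.04). The correlations per kb and without input were chosen after seeing the data.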
